A study of Mus musculus with 8 samples.

Results

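The CXC chemokines are small secreted proteins whose first pair of cysteines is separated by 1 other residue. The 10 members described here, Cxcl1, Cxcl2, Cxcl3, Cxcl5, Cxcl9, Cxcl10, Cxcl12, Cxcl13, Cxcl14 and Cxcl16, were picked by gene symbol from a table of 22274 mouse genes, with no measured value in the rule. They and the other gene lists below were nevertheless chosen with earlier results of these data known, so counts over them are descriptions. The RNA was from primary mouse cardiac fibroblasts, all exposed to TGF-β, the cytokine that drives fibroblasts towards myofibroblasts. The libraries fell into 2 groups of 4 by their labels, GFP for the control and OEIRF7 for overexpression of the interferon regulatory factor IRF7, and every sample of both groups had the TGF-β treatment. The study's methods name an adenovirus with an empty vector or IRF7, while the deposited design text names an adeno-associated virus, and the methods put the study's mouse strains on a C57BL/6 J background, with age and any pooling of animals for these cells not given in the sources used here. The question put to the data was how the level of each chemokine differed between these groups.

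The gene named in the labels was examined first. Mouse Irf7 was at 118 ± 24.0 CPM (counts scaled to the size of the library, SD, n = 4) in the libraries labelled GFP and at 15.2 ± 0.822 CPM in those labelled OEIRF7, a log2 fold change of -2.96 (SE 0.12, adjusted p = 7.7e-11). Mouse Irf7 thus went against the label, so the groups are called by their labels throughout. The counts are of mouse genes. In the study's reagent list the adenovirus is named for human IRF7, whose RNA these counts need not include, and the adeno-associated virus for mouse Irf7, whose RNA they would include, and which was used here was not settled. Every direction, fold and rank below is that of the labels, and an exchange of the labels would turn all of them, so that the chemokines given as higher under OEIRF7 would be lower there. With either labelling, the libraries in which the chemokines were higher are those with less mouse Irf7. Total counts ran from 24454801 to 28658826 per library, and no library stood apart in depth. All 9 fibroblast markers were tested, with 1 higher (Pdgfra, 122 and 145 CPM in the GFP and OEIRF7 libraries) and 5 lower. Among the lower were Tcf21, a transcription factor of resident cardiac fibroblasts (58.3 and 23.1 CPM, log2 fold change -1.33, adjusted p = 2.0e-08), Col3a1 (-0.53) and Col1a1 (4561 and 4070 CPM).

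Chemokines guide white blood cells along gradients held on heparan sulfate, and each subgroup acts on its own receptors. Cxcl1, Cxcl2, Cxcl3 and Cxcl5 belong to the ligands with the residues glutamate, leucine and arginine (ELR) before the first cysteine, which draw neutrophils through Cxcr2. Cxcl9 and Cxcl10 are induced by interferons and act on Cxcr3 of T cells and natural killer cells. Cxcl12 retains and recruits progenitor cells through Cxcr4 and is scavenged by Ackr3, Cxcl13 attracts B cells through Cxcr5, and Cxcl16 is a membrane-bound ligand of Cxcr6 that proteases shed. Cxcl14 is a homeostatic ligand whose receptor is less settled. Stromal cells such as fibroblasts are a known source of several of them, and the inflammatory ones are classical targets of NF-kB, a transcription factor of the response to injury and infection.

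The stretches of DNA before the start sites are shown for the 3 ELR chemokines with the largest differences and for Cxcl10. These hold letters searched for, but Cxcl9, which had almost no counts in either group, holds them too and is not shown. The stretches shown come from RefSeq promoters of GRCm38.p6, each of 300 bases, 250 before the start site and 50 from it on. Such promoters were found for 8 of the 10 members, not for Cxcl5 and Cxcl16. Capitals mark matches on either strand to GGNNTTTCC, a short pattern taken here for NF-kB sites. In Cxcl10 they also mark GAAANNGAA, letters of the interferon-stimulated response element (ISRE). Other forms of such sites were not searched for, so small letters do not mean that a site is absent. The sequences are written 5′ to 3′ on the strand of the gene. The first 3 end at the base before the start site, and that of Cxcl10 ends 61 bases before it.
Cxcl1, chr5:90891115-90891244, plus strand: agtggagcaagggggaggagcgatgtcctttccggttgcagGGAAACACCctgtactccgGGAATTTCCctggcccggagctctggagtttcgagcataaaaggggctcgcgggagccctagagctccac
Cxcl2, chr5:90903769-90903898, plus strand: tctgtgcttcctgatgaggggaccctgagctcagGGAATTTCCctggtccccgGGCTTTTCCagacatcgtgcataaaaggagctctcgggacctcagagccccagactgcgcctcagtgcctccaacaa
Cxcl3, chr5:90785971-90786100, plus strand: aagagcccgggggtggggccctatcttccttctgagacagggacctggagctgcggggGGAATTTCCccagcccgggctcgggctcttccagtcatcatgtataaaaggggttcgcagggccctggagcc
Cxcl10, chr5:92348950-92349119, minus strand: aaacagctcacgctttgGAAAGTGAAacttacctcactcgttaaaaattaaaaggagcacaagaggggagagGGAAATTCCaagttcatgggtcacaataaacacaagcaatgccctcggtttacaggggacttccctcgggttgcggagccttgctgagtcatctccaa
The run GGAATTTCC stood in each of Cxcl1, Cxcl2 and Cxcl3, at 70, 96 and 72 bases before the start site. Cxcl1 held a match on the other strand, GGAAACACC, and Cxcl2 held GGCTTTTCC besides.

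Over the 300-base promoters, GGNNTTTCC was found in 5 of the 8 members with a promoter (Cxcl1, Cxcl2, Cxcl3, Cxcl9 and Cxcl10), against 5.82% of all 32851 promoters in the table. GAAANNGAA was found in 3 (Cxcl9, Cxcl10 and Cxcl14), against 8.56% of all promoters, and TGANTCA, the letters of AP-1, in 2 (Cxcl9 and Cxcl10), against 7.81%. TATAAA was found in 3 (Cxcl3, Cxcl9 and Cxcl13), against 13.6%. Both strands were searched for all 4 patterns, no matches of different patterns shared bases in the 4 stretches printed, and Cxcl12 held none of them. A match describes letters in this window and says nothing of what binds there.

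Of the 10 members, 8 had enough counts to be tested, and all 8 were higher in the libraries labelled OEIRF7 at an adjusted p under 0.05 (edgeR's quasi-likelihood test, Benjamini-Hochberg over 13533 genes). None was lower. By that rule 29.0% of all tested genes were higher and 29.9% lower, so a call in itself was common in this comparison. The study's own rule of an unadjusted p under 0.05 and a fold over 1.5 or under 0.66 also put 8 of 8 tested members higher and 0 lower, beside 9.47% of all tested genes higher and 9.56% lower. The median log2 fold change of the 8 was 1.71, and that of all tested genes was 0.0015. Cxcl2 and Cxcl3 were low in the GFP libraries and passed the filter on low counts only with the OEIRF7 libraries, where they were high. With at least 10 counts required in every library these 2 were not tested, and 6 members were called higher and 0 lower. The 2 members that were not tested in the main fit, Cxcl9 and Cxcl13, had almost no counts in either group.

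**Figure D1:**
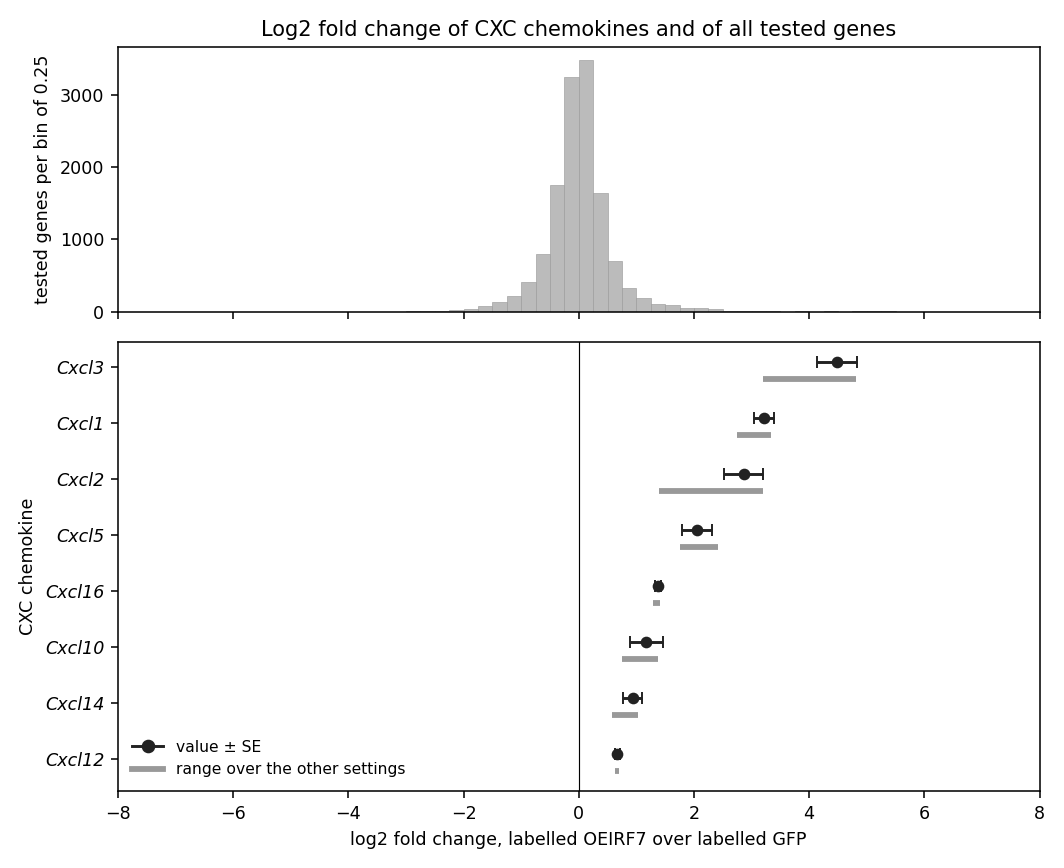
The upper panel shows how many tested genes fell in each bin of log2 fold change (OEIRF7 over GFP), and the lower panel the 8 tested CXC chemokines as points with their SE, with grey bars for the range over the other settings, 3 of which are on the log2 scale of FPKM plus a pseudocount. All 8 points and grey bars lie to the right of 0, from Cxcl12 at 0.67 to Cxcl3 at 4.49.

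The ELR chemokines were the members with the largest log2 fold changes. Cxcl3, a neutrophil attractant, was counted 9, 12, 27 and 20 times in the GFP libraries 1 to 4 and 336, 350, 633 and 248 times in the OEIRF7 libraries. The lowest OEIRF7 library was far above the highest GFP library. Its mean rose from 0.668 ± 0.334 CPM to 15.0 ± 6.68 CPM (SD, n = 4 each), 22.4-fold, with a log2 fold change of 4.49 (SE 0.35, adjusted p = 5.3e-08), which ranked 22 of 13533 from the highest.

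Cxcl1, known as KC and among the first chemokines made after injury, was counted 61, 59, 52 and 49 times in the GFP libraries and 522, 541, 676 and 358 times in the OEIRF7 libraries. The groups did not overlap, and the spread among the OEIRF7 libraries was wider than among the GFP libraries. Cxcl1 rose from 2.15 ± 0.218 to 20.0 ± 4.99 CPM, 9.26-fold, with a log2 fold change of 3.21 (SE 0.18, adjusted p = 1.2e-09) and rank 50. Cxcl2, or MIP-2, the closest relative of Cxcl3, was counted 14, 2, 7 and 16 times against 66, 78, 90 and 58 times. It had the lowest mean of the tested members in the GFP libraries, 0.374 ± 0.240 CPM, so its fold change rests on few counts there. It rose to 2.78 ± 0.519 CPM, a log2 fold change of 2.86 (SE 0.34, adjusted p = 3.8e-06), rank 66.

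Cxcl5, which like the others acts on Cxcr2, had the highest count of the ELR chemokines in every library. Its counts were 228, 169, 426 and 224 in the GFP libraries and 942, 1032, 1674 and 796 in the OEIRF7 libraries. Library 3 was the highest of its group on both sides, at 17.3 CPM among the GFP libraries and 65.7 CPM among the OEIRF7 libraries, and the groups still did not overlap. The mean rose from 10.3 ± 4.73 to 42.5 ± 15.6 CPM, a log2 fold change of 2.05 (SE 0.26, adjusted p = 8.2e-06), rank 177. Without library 3 of both groups, a comparison chosen after the values were seen, it was 2.13 (SE 0.091).

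The 4 ELR chemokines thus differed by unequal amounts. Each of them had non-overlapping groups, and each gave the smallest p that an exact two-sided permutation test of 4 against 4 allows, 0.0286. Over all tested genes 26.8% were higher in the OEIRF7 libraries with no overlap. Genes lower with no overlap can reach the same p, and their share is not given here. Cxcl1, Cxcl2, Cxcl3 and Cxcl5 were all highest in OEIRF7 library 3, as was Cxcl10, while 28.6% of all tested genes were highest in that library among the 4. Among the GFP libraries only Cxcl3 and Cxcl5 of the 8 were highest in library 3.

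**Figure D2:**
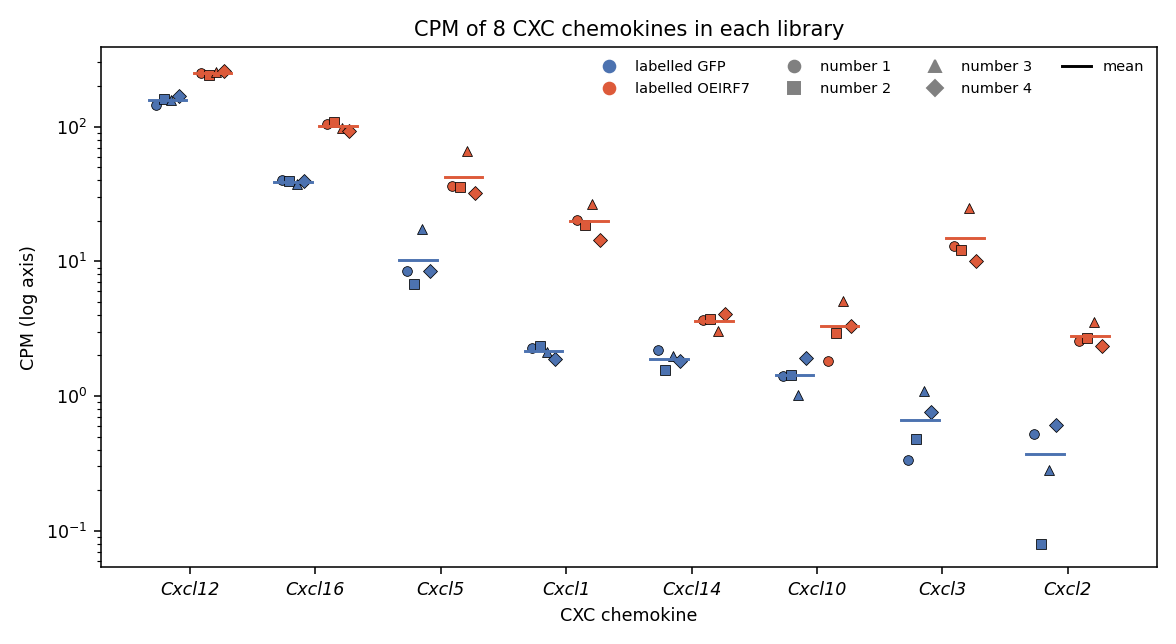
CPM of the 8 tested CXC chemokines on a log axis, with 1 point per library (blue, labelled GFP and red, labelled OEIRF7, the shape gives the library number) and a line at the mean of each group. The groups are apart for 7 of the 8, beside 26.8% of all tested genes that were higher with no overlap. For Cxcl10 the lowest OEIRF7 library lies below the highest GFP library.

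Cxcl10 was the sole interferon-induced member with counts to test. It was counted 38, 36, 25 and 50 times in the GFP libraries and 47, 85, 129 and 82 times in the OEIRF7 libraries. OEIRF7 library 1, at 1.82 CPM, was below GFP library 4, at 1.91 CPM, so the groups overlapped, unlike those of the other 7 tested members. The mean went from 1.45 ± 0.366 to 3.29 ± 1.35 CPM, a log2 fold change of 1.18 (SE 0.28) with an adjusted p of 0.0022 by edgeR, and the exact permutation test gave p = 0.0571. Without library 3 of both groups its log2 fold change was 0.76 (adjusted p = 0.019), the smallest of the settings tried.

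Cxcl9, the partner of Cxcl10 on Cxcr3, was counted 0, 5, 1 and 2 times in the GFP libraries and 1, 0, 0 and 0 times in the OEIRF7 libraries. These 8 counts against 1 are too few for the filter, and no fold is given. Cxcl11, the remaining Cxcr3 ligand, was at 3 counts over the GFP libraries and 14 over the OEIRF7 libraries, of which 8 were in library 2, and was not tested either. A small difference in Cxcl9 or Cxcl11 was not detectable at this depth, and neither had more than 8 counts in any library.

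Cxcl12, also known as SDF-1, was by far the most abundant member. It was counted 3900, 4032, 3883 and 4425 times in the GFP libraries and 6479, 7045, 6505 and 6388 times in the OEIRF7 libraries. All 4 OEIRF7 libraries were above all 4 GFP libraries, and the spread within a group was small. It rose from 158 ± 9.72 to 252 ± 6.97 CPM, 1.59-fold, the smallest log2 fold change of the 8 at 0.67 (SE 0.043, adjusted p = 6.5e-09), rank 1145. In CPM this was also the largest gain of any member.

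Cxcl16, made as a transmembrane protein with a chemokine head, was counted 1074, 978, 930 and 1031 times in the GFP libraries and 2705, 3167, 2500 and 2292 times in the OEIRF7 libraries. The groups were far apart beside their spread. It rose from 39.1 ± 1.01 to 101 ± 7.17 CPM, a log2 fold change of 1.37 (SE 0.050, adjusted p = 2.8e-11), rank 392. Cxcl16 overlaps Zmynd15 on the opposite strand, and the strand setting of the counting is not given in the sources used here. Zmynd15 had 121 counts over the GFP libraries and 268 over the OEIRF7 libraries, the same direction as Cxcl16. How many reads the overlap touched was not measured.

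Cxcl14 was counted 59, 39, 49 and 48 times in the GFP libraries and 94, 109, 77 and 101 times in the OEIRF7 libraries, with no overlap. It rose from 1.89 ± 0.269 to 3.63 ± 0.448 CPM, a log2 fold change of 0.93 (SE 0.16, adjusted p = 0.00016), rank 698. Cxcl13, the B cell attractant, had 0 counts in all 8 libraries, where a count of 0 allows up to 3 counts, or 0.105 to 0.123 CPM depending on the library. The permutation test gave 0.0286 for Cxcl12, Cxcl14 and Cxcl16 as well, and over all tested genes 26.8% were higher in the OEIRF7 libraries with no overlap between groups.

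Levels were compared between members by FPKM, the deposited values per length of gene. In the GFP libraries the order was Cxcl12 (70.2 ± 4.50 FPKM), Cxcl16 (19.2 ± 0.914), Cxcl5 (6.46 ± 2.99), Cxcl1 (2.24 ± 0.228), Cxcl10 (1.30 ± 0.323), Cxcl14 (1.04 ± 0.164), Cxcl3 (0.653 ± 0.326) and Cxcl2 (0.318 ± 0.209). The ranges over libraries of Cxcl10 and Cxcl14, of Cxcl14 and Cxcl3, and of Cxcl3 and Cxcl2 overlapped, so these neighbours were not set apart. In the OEIRF7 libraries the order was Cxcl12 (113 ± 2.26 FPKM), Cxcl16 (48.7 ± 3.20), Cxcl5 (27.2 ± 9.80), Cxcl1 (21.1 ± 5.19), Cxcl3 (14.9 ± 6.54), Cxcl10 (3.02 ± 1.23), Cxcl2 (2.44 ± 0.473) and Cxcl14 (2.03 ± 0.233). Cxcl3 stood above Cxcl10 and Cxcl14 there and below both in the means of the GFP libraries. The ranges of Cxcl5 and Cxcl1 and of Cxcl1 and Cxcl3 overlapped, although Cxcl5 was above Cxcl1 and Cxcl1 above Cxcl3 within each of the 4 OEIRF7 libraries, and the last 3 overlapped as well.

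The mix of CXC chemokine RNA shifted with these changes. Summed over the 10 members, the level was 214 ± 9.80 CPM in the GFP libraries and 441 ± 28.5 CPM in the OEIRF7 libraries. By FPKM, Cxcl12 made up 69.2 ± 1.92% of the sum in the GFP libraries and 49.0 ± 4.57% in the OEIRF7 libraries (SD, n = 4), while the 4 ELR chemokines went from 9.50 ± 2.90% to 27.8 ± 6.33%. The share of Cxcl16 was 19.0 ± 1.04% and 21.1 ± 2.39%, with overlapping ranges. The ELR share was highest in library 3 of either group, at 13.7% and 36.9%. These shares restate the levels above and were not tested on their own.

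**Figure D3:**
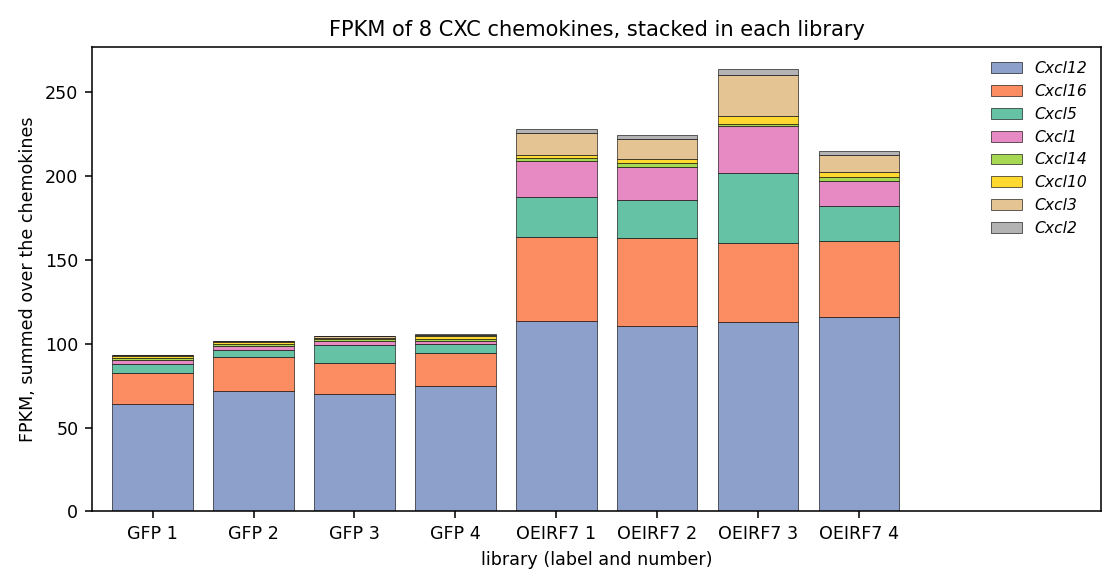
FPKM of the 8 tested CXC chemokines stacked in each of the 8 libraries, named by label and number. The stacks reach 93.5 to 106 FPKM in the GFP libraries and 215 to 264 FPKM in the OEIRF7 libraries, where Cxcl5, Cxcl1 and Cxcl3 take a visibly larger part.

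The ELR chemokines lie together on chromosome 5 of GRCm38, all on the plus strand, in the order Cxcl5 (90759360 to 90761624), Cxcl3 (90786103 to 90789600), Cxcl1 (90891241 to 90893115) and Cxcl2 (90903871 to 90905938), over 146579 bases. Other CXC ligands lie between them. Of these, Pf4, or platelet factor 4, was counted 62, 48, 68 and 56 times against 73, 106, 84 and 66 times, so the groups overlapped. Its log2 fold change was 0.45 (SE 0.17, adjusted p = 0.030), and the call was lost when GFP library 1, 2 or 4 or OEIRF7 library 2 or 3 was left out (0.36 without OEIRF7 library 2, adjusted p = 0.10). Ppbp had 10 counts over the GFP libraries and 12 over the OEIRF7 libraries, and Cxcl15 had 0 in all.

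Neither gene at the sides of the cluster was called higher. Rassf6, on the side of Cxcl5 and on the opposite strand, fell by 0.94 on the log2 scale (SE 0.25, adjusted p = 0.0042), and Mthfd2l, on the side of Cxcl2, was at 0.21 (adjusted p = 0.092). Ppbp and Pf4, between Cxcl5 and Cxcl3, and Cxcl15, between Cxcl3 and Cxcl1, did not reach 4 CPM in any library. Cxcl2 did not reach 4 CPM either, with 3.53 CPM at most, in OEIRF7 library 3.

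**Figure D4:**
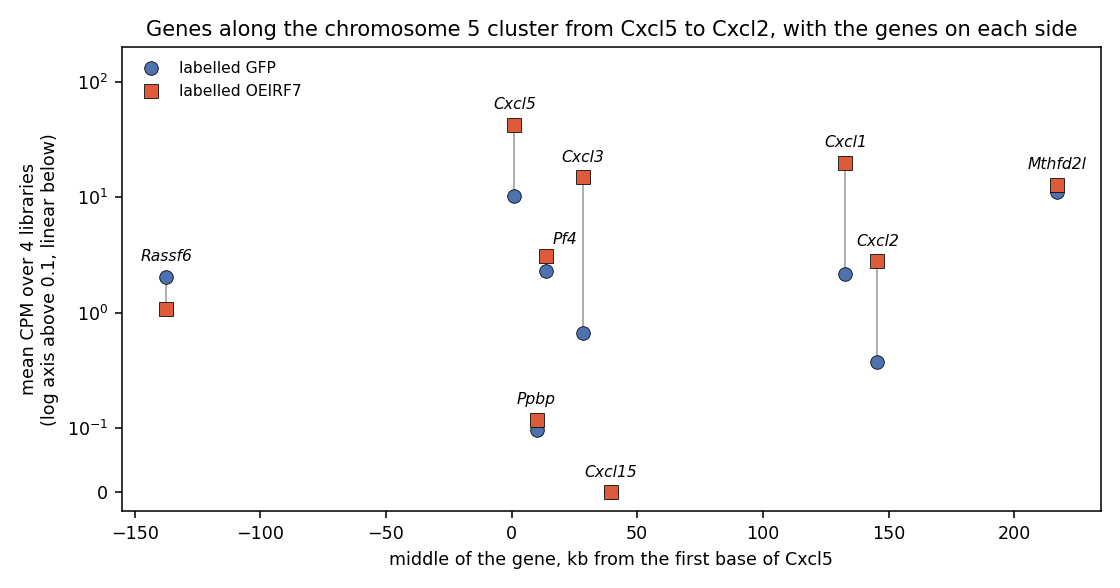
Mean CPM over 4 libraries (log axis above 0.1) of each gene by the distance of its middle from the first base of Cxcl5, in kb, with circles for the GFP and squares for the OEIRF7 libraries. Cxcl5, Cxcl3, Cxcl1 and Cxcl2 have squares well above circles, while Pf4, Ppbp and Mthfd2l have both close together, Cxcl15 is at 0 and Rassf6 has the square below the circle.

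Cxcl2 and Cxcl3 are near copies, with 89.8% of aligned coding bases identical and a shared run of 110 bases, so both values are given as uncertain where reads fall in that part. How many reads this touched was not measured. Cxcl1 was less alike, with 75.6% identity to Cxcl2, 72.6% to Cxcl3 and shared runs of at most 23 bases. Cxcl5 had 49.0% identity to Cxcl1.

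Cxcl9 and Cxcl10 lie further along chromosome 5, on the minus strand, over 27543 bases (Cxcl9 from 92321347 to 92328079 and Cxcl10 from 92346638 to 92348889). Art3, on the plus strand, spans Cxcl10 and was lower in the OEIRF7 libraries, by a log2 fold change of -0.49 (SE 0.13, adjusted p = 0.0048), with 592 counts over the GFP libraries and 430 over the OEIRF7 libraries. Its direction was opposite to that of Cxcl10. As with Cxcl16, the strand setting of the counting is not given, and how many reads the overlap touched was not measured. Sdad1, next to Cxcl9, was higher by 0.40 (SE 0.053, adjusted p = 1.1e-05). Cxcl13 lies on chromosome 5 as well (95956951 to 95961068), Cxcl12 on chromosome 6 (117168535 to 117181367), Cxcl14 on chromosome 13 (56288643 to 56296551) and Cxcl16 on chromosome 11 (70453983 to 70459984).

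The 3′ untranslated regions of the members differed in their letters. The nonamer TTATTTATT, a form of the AU-rich element by which short-lived cytokine mRNAs are bound and degraded, occurred 2 times in the region of Cxcl1, 4 times in that of Cxcl2 and 1 time in that of Cxcl3. None of the other 7 members held it. Of 20676 mouse genes with such a region of at least 50 bases, 7.78% held it. The shorter ATTTA occurred 11.8, 7.36, 7.75 and 4.50 times per kb in Cxcl1, Cxcl2, Cxcl3 and Cxcl5, and 0 to 3.01 times in the other members, beside a median of 1.28 over all genes.

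Of the receptors of these ligands, Ackr3 alone was called. Ackr3, the scavenger of Cxcl12, was counted 179, 201, 182 and 176 times in the GFP libraries and 529, 552, 473 and 527 times in the OEIRF7 libraries, with no overlap. It rose from 7.20 ± 0.649 to 19.9 ± 1.30 CPM, a log2 fold change of 1.46 (SE 0.080, adjusted p = 1.2e-09). Cxcr4, the signalling receptor of Cxcl12, was at 13.2 ± 1.36 and 13.7 ± 0.933 CPM, with a log2 fold change of 0.05 (SE 0.082, adjusted p = 0.64).

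Cxcr6, the receptor of Cxcl16, was counted 6, 9, 20 and 6 times against 14, 21, 20 and 16 times, a log2 fold change of 0.75 (SE 0.39, adjusted p = 0.11). GFP library 3, with 20 counts, lay among the OEIRF7 libraries, and without it the log2 fold change was 1.31 (adjusted p = 0.0076). Cxcr2, the receptor of the ELR chemokines on neutrophils, had 0 counts in the GFP libraries and 3, 4, 1 and 2 counts in the OEIRF7 libraries. Cxcr1, Cxcr3, Cxcr5 and Ackr1 had at most 6 counts in any library, and these 5 receptors were not tested.

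**Figure D5:**
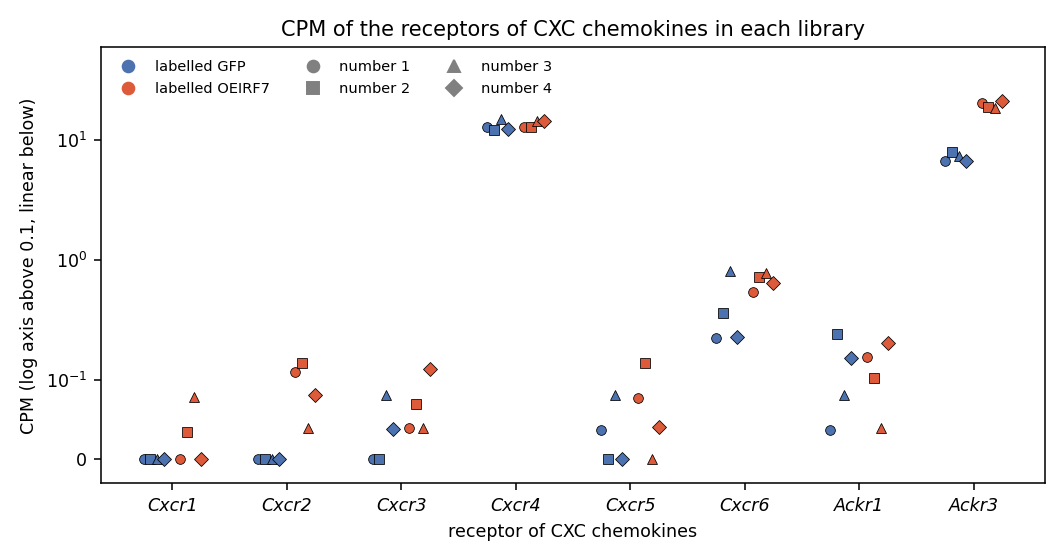
CPM of 8 receptors of CXC chemokines in each library (log axis above 0.1, linear below, blue for labelled GFP and red for labelled OEIRF7, the shape gives the library number). Ackr3 is apart between the groups, Cxcr4 is level at 13.2 and 13.7 CPM, Cxcr6 is below 1 CPM, and the other 5 lie near 0.

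Genes that cut, shed or hold chemokines at the cell surface moved both ways. Of 12 tested, 3 were higher, 6 lower and 3 not called, with a median log2 fold change of -0.12. Over all tested genes 29.0% were higher and 29.9% lower, and these shares belong beside the counts of every gene list given here. Mmp9, a gelatinase that trims ELR chemokines, was counted 2, 3, 4 and 10 times against 276, 367, 334 and 205 times, a log2 fold change of 5.88 (SE 0.27, adjusted p = 2.4e-10). It passed the filter on low counts only with the OEIRF7 libraries, where it was high. With at least 10 counts required in every library Mmp9 was not tested, and 2 genes of this list were called higher. Among the syndecans, whose heparan sulfate holds chemokines, Sdc4 rose by 0.64 and Sdc3 by 0.11, while Sdc1 fell by 0.53 and Sdc2 fell by 0.48. Dpp4, the peptidase that inactivates Cxcl10 and Cxcl12, fell by 1.26 (SE 0.18, adjusted p = 3.3e-05). Adam10, which sheds Cxcl16, was at -0.06 (adjusted p = 0.13), and Adam17, another sheddase, at -0.14 (adjusted p = 0.012).

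Of 8 genes that control the decay of chemokine mRNA, 3 were higher and 3 lower, with a median of 0.028. Zc3h12a, or Regnase-1, an endonuclease of inflammatory mRNAs, rose by 1.06 (SE 0.078) and Zfp36l2 by 0.99 (SE 0.051), and Rc3h1 rose by 0.32. Zfp36, or tristetraprolin, which binds the AU-rich nonamer, fell by 0.28 (SE 0.059, adjusted p = 0.0010), and Elavl1 and Khsrp fell by 0.15 each.

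Other classical targets of NF-kB were set beside the members. Of 17 tested, 13 were higher and 0 lower, with a median log2 fold change of 1.18. The largest values were those of Csf2, a growth factor of myeloid cells (5.29, on 5 counts over the GFP libraries), Ccl7 (3.93) and Ccl2 (3.14), the last 2 being monocyte attractants of the CC class. The 4 that were not called, named here after their values were seen, were Il6 (-0.05), Lif (-0.0016), Sod2 (0.06) and Lcn2 (0.16).

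Of 19 tested interferon-stimulated genes, 7 were higher and 4 lower, with a median of 0.12. Oasl1 (2.22), Rsad2 (1.20) and Oasl2 (0.55), antiviral effectors, were the highest of those called, and Gbp2 (-0.37) and Ifit3 (-0.32) were among those called lower. Ifit3 and Ifit1 had overlapping groups, and 2 of the 19 in place of 4 were called lower by DESeq2 or when GFP library 2, OEIRF7 library 1 or OEIRF7 library 4 was left out. Without GFP library 2, 10 were higher and 2 lower. Cxcl10, at 1.18, lay near Rsad2 in this list.

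Genes whose pattern was most like that of a member were found by the root mean square difference of their log2 CPM, centred on the mean over the 8 libraries, among 12489 genes with a mean of at least 1 CPM. Cxcl1 was nearest to Ccl2 (difference 0.16), Rrad (0.22) and Angptl4 (0.23). Cxcl5 was nearest to Slc6a12 (0.18), Grem1 (0.23) and Gper1 (0.24). The nearest genes lay further off for Cxcl2 (Hmgcll1, 0.29, then Doc2b and Atp13a4) and Cxcl3 (Psg22, 0.41, then Lce1f and Ptpn22). Cxcl10 was nearest to Rsad2 (0.23), Egr3 (0.30) and Egr1 (0.31). The steadier members had closer neighbours, with 5031439G07Rik (0.034), Ppa1 and Mark1 for Cxcl12, Slc7a11 (0.043), Junb and Hbegf for Cxcl16, and Mrc1 (0.087), Trex1 and Lrp8 for Cxcl14. All these share the same 8 libraries with the members, and the measure is a description.

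White blood cells also make CXC chemokines, so the markers of other cell types are given beside the results. Of 8 macrophage markers, 4 were higher (Itgam 1.07, Mrc1 1.05, Adgre1 0.44 and Cd68 0.21) and Cx3cr1 was lower (-1.86), while Ptprc (-0.08), Csf1r (0.06) and Fcgr1 (0.16) were not called. Their sum ran from 93.9 to 107 CPM in the GFP libraries and from 125 to 136 CPM in the OEIRF7 libraries, and none was at 0. The part of macrophages in the chemokine values was not tested, and in such bulk samples more cells of a type and more RNA per cell cannot be told apart.

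Neutrophil markers summed to 0.122 to 0.534 CPM in the GFP libraries and 0.550 to 0.973 CPM in the OEIRF7 libraries, and none of the 7 was tested. S100a9, Ly6g, Elane and Retnlg were at 0 in every library, and S100a8 had 9 counts over the GFP libraries and 56 over the OEIRF7 libraries. Lymphocyte markers summed to 0.0763 to 0.284 CPM in the GFP libraries and 0.388 to 0.689 CPM in the OEIRF7 libraries, with Cd3e, Cd3g and Ncr1 at 0 and Ms4a1 at 7 counts over the GFP libraries and 36 over the OEIRF7 libraries. The part of either cell type in the chemokine values was not tested. Of 7 endothelial markers 3 were higher and 1 lower, with sums of 217 to 231 and 221 to 250 CPM, and of 4 tested mural markers 2 were higher and 1 lower, with sums of 65.7 to 72.3 and 77.3 to 97.3 CPM. Epicardial markers summed to 72.5 to 88.6 and 58.6 to 66.2 CPM (2 of 5 tested higher, 1 lower), and of 7 cardiomyocyte markers Tnnt2 alone was tested, at -0.54. The 9 fibroblast markers had sums of 10943 to 11508 and 9722 to 10460 CPM.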

How the data were processed

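The 8 RNA-seq libraries, 4 labelled GFP and 4 labelled OEIRF7, were analysed. The authors trimmed reads with Trimmomatic, mapped them with HISAT2 to GRCm38 and deposited raw counts per gene made with HTSeq-count. The authors also deposited FPKM from Cufflinks, normalized for gene length and depth and rounded to 2 decimals. The study names a stranded kit, the labels another kit, and versions and the strand setting of the counting are not given in the sources used here. Columns with the authors' own means, fold changes and p-values were not used. Of the gene symbols, 121 that held the letters GFP in place of others were restored by identifier, and positions came from GENCODE M21.

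Counts were tested in R 4.3.3 with edgeR 4.0.16 (filterByExpr by group, TMM, glmQLFit and glmQLFTest without covariates, Benjamini-Hochberg over 13533 tested genes), and the script was tested on simulated data. SE was the log2 fold change divided by the square root of F. CPM used the TMM library sizes. Exact two-sided permutation tests of log2 CPM (prior count of 2) used SciPy 1.17.1 over 70 arrangements, and p-values measure the spread between these libraries, since nothing states whether they came from separate animals. The range of total counts, 24454801 to 28658826, leaves genes under about 1 CPM with few counts, and floors cover counting error only. Coding identity used Biopython 1.88. The coding and 3′ untranslated bounds came from the annotation.

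The members and all gene lists were chosen with earlier results of these data known. Named were all 10 members, all receptors and other CXC ligands, neighbours of clustered members, the 3 genes most like each member, up to 3 genes called higher and 3 lower with a mean of at least 1 CPM in each other list, and markers that bear on a result. One gene that this rule names is not reported here. The AU-rich counts and the fit without library 3 of both groups were added after values were seen. The other alternatives were DESeq2 1.42.0, limma 3.58.1 on FPKM, as log2(FPKM + 1) or log2(FPKM + 0.1), keeping genes whose mean was over 0.1 or keeping all, other scalings, other filters on low counts, a replicate block, and leaving out each library in turn.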

Additional observations from a re-analysis of the deposited data

Results flagged for a closer look

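Cxcl5 in library 3 was far from the rest of its group on both sides. Among the GFP libraries the gap from library 3 (17.3 CPM) to the next library was 0.831 of the whole range, and among the OEIRF7 libraries the gap from library 3 (65.7 CPM) was 0.873 of the range, both past the 95% limit of Dixon's test for 4 values. Of 30 groups of values examined in this way these 2 were past it, and chance puts about 1 in 20 there. What set library 3 apart was not tested.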

How the results depend on the processing

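The rise of the 8 tested CXC chemokines kept its direction and its side of the adjusted p threshold in each of the 142 comparisons run under 18 other settings. Cxcl2 and Cxcl3 were not tested with at least 10 counts in every library. Leaving out 1 library at a time gave log2 fold changes of 4.13 to 4.82 for Cxcl3, 1.77 to 2.42 for Cxcl5 and 0.89 to 1.37 for Cxcl10. On log2(FPKM + 1), which understates low genes, Cxcl2 was at 1.39 and Cxcl14 at 0.57. With that unit the fold rule called 7 of the 8 chemokines, not Cxcl14, with and without the filter, and 766 of all genes higher and 636 lower (763 and 635 without the filter), against 1282 and 1294. Irf7 stayed between -3.06 and -2.72.

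Of the receptors, 2 in place of 1 were higher with at least 1 count in total, with log2(FPKM + 1) and no filter, and without library 3 of both groups, a fit chosen after seeing the data; leaving out 1 library gave 1 to 2. Of the genes of mRNA decay, 1 in place of 3 was lower with log2(FPKM + 1) and no filter. Of the interferon-stimulated genes, 2 in place of 4 were lower with DESeq2 and with limma on FPKM, whatever the pseudocount or filter, and 2 to 4 when 1 library was left out. The cause was not tested.

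With the replicate number as a block, 8 chemokines were still higher and the calls over all genes went from 3924 to 4057 higher and from 4045 to 4154 lower. Deviations from the group means of libraries with the same number correlated at 0.0792 to 0.138, each best with its own number, a hint from the data and not from the design. Genes under about 1 CPM, Cxcl9 and Cxcl13 among them, are limited by depth.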
